A study of Bos taurus with 14 samples.

Results

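The let-7 family of bovine microRNAs (miRNAs) was examined in plasma and blood leucocytes of Holstein cows. Its members were taken by name, and 8 of 8 names (bta-let-7a-5p, bta-let-7b, bta-let-7c, bta-let-7d, bta-let-7e, bta-let-7f, bta-let-7g and bta-let-7i, written below without the bovine prefix bta) were listed with reads in all 14 libraries, out of 932 names listed in any library. Of the 932 names, 723 were bovine and 209 were human, the latter being human miRNAs to which bovine reads had also been assigned. The let-7 miRNAs are among the most conserved small RNAs of animals. They share the same seed, the stretch near the 5′ end with which a miRNA pairs with its target messages, and differ at a few bases elsewhere. In mammals they accumulate as cells differentiate, the RNA-binding protein LIN28 blocks their maturation, and known targets include RAS and MYC messages and HMGA2. In blood they are abundant in cells and in cell-free plasma, and in immune cells they are known as regulators of cytokine messages such as IL6.

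The libraries came from non-lactating Holstein cows with a ruminal cannula. The cows received a forage diet (FD, 0% concentrate) and then a high-grain diet (HG, 65% concentrate), a feeding model of subacute ruminal acidosis (SARA), and the HG blood was drawn in week 1 of that diet. Plasma was sequenced from cows 1, 2, 3 and 4 (4 libraries per diet) and leucocytes from cows 1, 3 and 4 (3 libraries per diet). Every cow received FD before HG, so diet and time cannot be told apart, and a different RNA extraction kit was used for each sample type, so kit and sample type cannot be told apart either. The leucocyte samples were buffy coat, the layer of white cells of centrifuged blood.

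Reads assigned to miRNAs numbered 376589 to 4464702 per plasma library and 21764578 to 66070770 per leucocyte library. All 6 leucocyte marker names (among them miR-142-5p and miR-223) had reads in every library, but they did not go the same way. In mean CPM (defined below), miR-223 had 9797 in plasma and 6351 in leucocytes, and miR-155 had 366 and 255. The means of miR-142-5p (6704 and 10718), miR-142-3p, miR-150 and miR-342 were lower in plasma. Summed, the markers made up 2.29 to 3.41% of adjusted counts in leucocytes and 1.64 to 3.48% in plasma. Erythroid names (miR-451, miR-144, miR-486 and miR-363 with their human counterparts) made up 35.4 to 48.9% in leucocytes and 7.96 to 23.6% in plasma. Over bovine names only, as in the other sums of this paragraph, they made up 18.3 to 35.04% and 4.04 to 11.9%. Names typical of vessels and platelets (miR-126, miR-143, miR-145) made up 2.88 to 7.43% in plasma and 0.0644 to 0.325% in leucocytes, and the liver names miR-122 and miR-192 0.945 to 9.003% and 0.0655 to 0.0876%. The part of these cell types in the results below was not tested.

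The members stem from several places in the bovine genome. On the build of the deposited files (UMD3.1), the reads of let-7a-5p were placed at chr8:86884877-86884898 on the plus strand, and in 1 library at chr15:33347573-33347594 on the minus strand. Let-7d lay close to the former at chr8:86887438-86887459 on the plus strand. Let-7b lay at chr5:117120190-117120211 (plus), let-7i at chr5:51209086-51209107 (minus), let-7c at chr1:19930469-19930490 (minus), let-7e at chr18:58015043-58015063 (plus), let-7g at chr22:49189344-49189365 (plus) and let-7f at chrX:96383539-96383560 (minus). In the RefSeq annotation of another build, from which only neighbours were taken, MIRLET7A-1, MIRLET7F-1 and MIRLET7D lay within 10 kb of each other, as did MIRLET7A-3 and MIRLET7B. MIRLET7C had MIR99A beside it, MIRLET7A-2 had MIR100, MIRLET7E had MIR99B and MIR125A, and MIRLET7F-2 had MIR98, a further miRNA with the let-7 seed. MIRLET7F-2 and MIR98 lay inside the protein-coding gene HUWE1, and MIRLET7G inside WDR82.

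The counting of reads bears on every level given here. Levels are adjusted counts, in which a read that fits several hairpin copies or names is divided among them, expressed per 1e6 adjusted counts of the library (CPM). Let-7a-5p kept 16.1 to 17.1% of its undivided reads and let-7f 26.0 to 26.8%, whereas let-7b, let-7d, let-7g and let-7i kept 43.8 to 49.9%. For let-7c the share kept ranged from 23.3 to 46.05% between plasma libraries and from 34.9 to 40.7% between leucocyte libraries. For let-7e it was 37.1 to 47.7% in plasma and 23.96 to 34.8% in leucocytes. The 7 human counterparts that were listed (those of b, c, d, e, f, g and i) held the same counts as the bovine names in 14 of 14 libraries. Adjusted levels are therefore compared between sample types and diets for 1 member, and the order of members is given with both kinds of counting. Let-7a-5p and let-7f ranked lower among the members by adjusted counts than by undivided reads, in both sample types and on both diets.

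In leucocytes the family varied little between cows on FD. The 8 members together held 3.63% ± 0.0829 (SD, n = 3) of adjusted counts on FD and 3.83% ± 0.447 (n = 3) on HG. In plasma they held 5.93% ± 2.03 (n = 4) on FD and 5.98% ± 1.68 (n = 4) on HG. The plasma values were 5.65, 3.32, 6.60 and 8.17% on FD in cows 1 to 4, and 8.05, 4.61, 4.63 and 6.64% on HG. These are shares of bulk samples, in which fewer cells of a type and less RNA per cell cannot be told apart. The lowest plasma library on FD lay below the leucocyte libraries, whereas on HG all 4 plasma libraries lay above the 3 leucocyte libraries. By undivided reads the family took 13.2% ± 3.97 of miRNA reads in plasma and 8.62% ± 0.299 in leucocytes on FD, and 13.2% ± 3.45 and 9.31% ± 0.994 on HG. With the erythroid names left out of the total, the family held 7.14% ± 2.14 in plasma and 6.38% ± 0.770 in leucocytes on FD, and 7.07% ± 1.39 and 6.75% ± 0.272 on HG. The HG libraries then overlapped, at 5.92 to 8.74% in plasma and 6.49 to 7.03% in leucocytes. They also overlapped over bovine names only (6.37 to 10.6% and 5.21 to 6.41%), but not by undivided reads (10.7 to 18.1% and 8.17 to 9.96%).

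**Figure D1:**
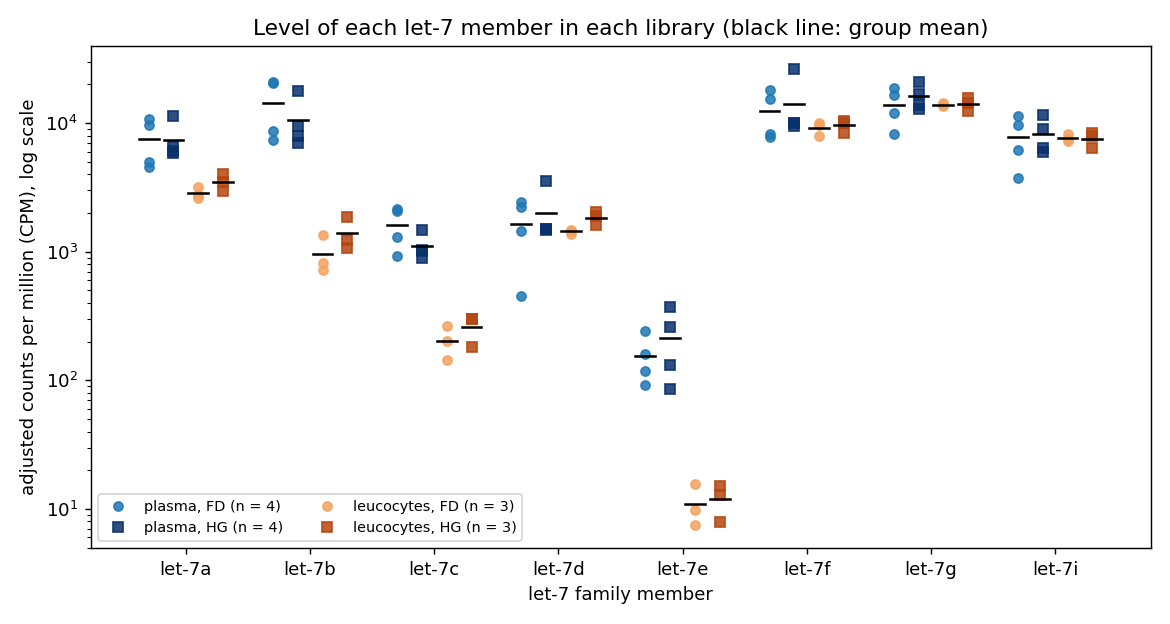
Each point is 1 library and each black line a group mean, with the 8 members on the x axis and CPM on a logarithmic y axis. Let-7a-5p, let-7b, let-7c and let-7e stood higher in every plasma library than in any leucocyte library of the same diet, while the points of let-7d, let-7f, let-7g and let-7i overlapped.

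The order of the members in leucocytes was let-7g, let-7f, let-7i, let-7a-5p, let-7d, let-7b, let-7c and let-7e, from 13913 ± 300 CPM for let-7g to 11.0 ± 4.16 CPM for let-7e on FD (mean ± SD, n = 3). The order was the same on HG, and each member lay above the next in 3 of 3 libraries on both diets. By undivided reads let-7f came first, then let-7g and let-7a-5p, and let-7a-5p and let-7i did not keep their order in every library on FD. Let-7e, the scarcest member, still rested on 843 to 1765 undivided reads per leucocyte library.

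In plasma the order was less fixed. On FD the means ran let-7b (14333 ± 7335 CPM), let-7g (13928 ± 4700.5), let-7f (12392 ± 5165), let-7i (7759 ± 3444), let-7a-5p (7513 ± 3224), let-7d (1645 ± 905), let-7c (1612 ± 601) and let-7e (153.5 ± 66.4; SD, n = 4). Only 2 steps of this order held in 4 of 4 libraries, those from let-7a-5p to let-7d and from let-7c to let-7e. On HG let-7g (16129 ± 3689 CPM) and let-7f (14047 ± 8307) came before let-7b (10616 ± 5000), and the steps below let-7a-5p held in 4 of 4 libraries. By undivided reads let-7f and let-7a-5p came first in plasma on both diets. The plasma libraries also spread more: the coefficient of variation of the members was 22.8 to 60.8% in the plasma groups and 2.15 to 38.0% in the leucocyte groups.

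The make-up of the family, each member as a share of the adjusted counts of all 8, does not depend on how a library is scaled. It does depend on the division of reads. In plasma on FD, let-7a-5p took a mean of 12.9% of the family by adjusted counts and 25.8% by undivided reads. Let-7b took 15.3 to 31.2% of the family in plasma and 1.95 to 3.84% in leucocytes on FD, and 11.8 to 27.0% and 3.03 to 4.52% on HG. Let-7g took 20.3 to 28.4% in plasma and 37.9 to 38.7% in leucocytes on FD, and 20.95 to 31.7% and 34.9 to 38.3% on HG. Let-7i took 11.0 to 14.6% in plasma and 20.1 to 21.99% in leucocytes on FD, and 13.0 to 14.4% and 19.3 to 20.5% on HG. For these 3 members the ranges of plasma and leucocytes did not overlap on either diet, and this held with undivided reads too. The same was true of let-7c and let-7e, both with larger shares in plasma. Let-7c took 1.58 to 3.68% in plasma and 0.399 to 0.744% in leucocytes on FD, and 1.27 to 2.21% and 0.549 to 0.736% on HG. The share of let-7d overlapped on FD and was lower in plasma on HG, and by undivided reads it was lower in plasma on both diets. The shares of a library sum to a whole, so these differences are not independent of each other. In CPM, let-7g and let-7i overlapped between the sample types on both diets. The log2 ratio of let-7g to let-7i was 0.90 ± 0.26 (SD) in plasma and 0.86 ± 0.06 in leucocytes on FD, and 0.99 ± 0.32 and 0.91 ± 0.12 on HG. The shares of let-7f and let-7a-5p overlapped between the sample types on both diets.

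**Figure D2:**
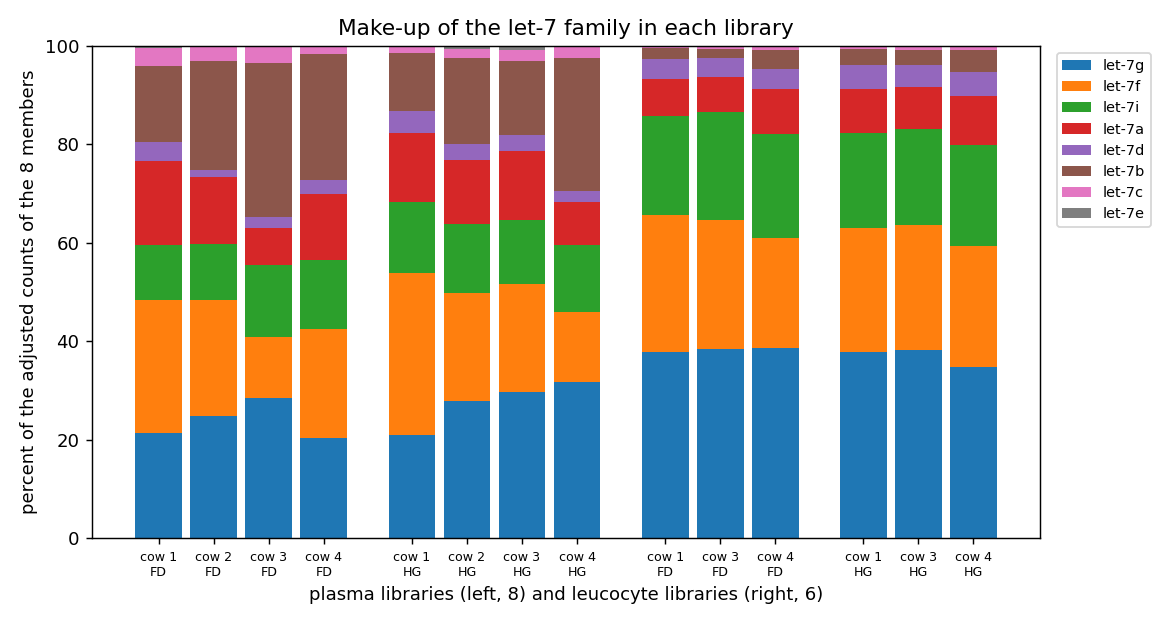
Each bar is 1 library, 8 of plasma on the left and 6 of leucocytes on the right, and its coloured parts are the members' percentages of the family's adjusted counts. Let-7b filled 11.8 to 31.2% of the plasma bars and 1.95 to 4.52% of the leucocyte bars, and let-7g filled more of every leucocyte bar than of any plasma bar.

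Plasma was compared with leucocytes to learn whether the cell-free family mirrored that of the cells. Let-7b, let-7c and let-7e were higher in plasma on both diets, although the call of let-7c on HG was lost in 8 of 14 alternatives. In edgeR's quasi-likelihood test, 3 of 8 members passed a Benjamini-Hochberg adjusted p of 0.05 on FD, where 15.1% of the 797 names tested were higher in plasma and 19.3% lower, and 3 of 8 on HG, where 16.8% were higher and 18.3% lower. The members' median log2 fold change was 0.35 on FD and -0.23 on HG, beside -1.62 and -0.77 over all names tested. This contrast depended on the filter on low counts and on the method of the fit. With at least 10 reads in every library, the members' medians were -0.29 on FD and -0.65 on HG, beside 0.087 and -0.055 over all names. With limma voom they were 0.34 on FD and -0.22 on HG, beside 0.026 and -0.099. With DESeq2 they were 0.016 on FD and -0.57 on HG, beside -0.70 on both diets.

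Let-7b showed the widest gap on FD. In plasma it measured 8645, 7351, 20580 and 20757 CPM on FD in cows 1 to 4, and 9512, 8013, 6986 and 17953 CPM on HG. In leucocytes it measured 821, 725 and 1361 CPM on FD in cows 1, 3 and 4, and 1077, 1233 and 1855 CPM on HG. The lowest plasma library lay above the highest leucocyte library on both diets. The log2 fold change of plasma over leucocytes was 3.44 (SE 0.478, edgeR adjusted p = 0.000365) on FD and 1.98 (SE 0.447, edgeR adjusted p = 0.00767) on HG, or 10.8-fold and 3.95-fold. Over 14 alternatives the value on HG ran from 1.43 (without cow 2) to 3.097 (total library size in place of TMM). On HG the call was lost without cow 1 (1.53, edgeR adjusted p = 0.0588) and without cow 4 (1.88, edgeR adjusted p = 0.0625). Against let-7g of the same library, the log2 ratio of let-7b was -0.05 ± 0.35 (SD, n = 4) in plasma and -3.90 ± 0.50 (n = 3) in leucocytes on FD, and -0.68 ± 0.32 and -3.38 ± 0.38 on HG.

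Let-7c, which has miR-99a as its genomic neighbour, measured 2081, 924, 2150 and 1294 CPM in plasma on FD and 145, 202 and 264 CPM in leucocytes. On HG it measured 1024, 899, 1019 and 1469 CPM in plasma and 182, 300 and 300 CPM in leucocytes. The groups did not overlap on either diet. The log2 fold change was 2.49 (SE 0.401, edgeR adjusted p = 0.00086) on FD and 1.12 (SE 0.384, edgeR adjusted p = 0.0402) on HG. The call on HG was lost in 8 of 14 alternatives. These were each of the 4 left-out cows (0.54 without cow 1 to 1.36 without cow 3), DESeq2 size factors (0.80, edgeR adjusted p = 0.124), at least 10 reads in every library (0.72, edgeR adjusted p = 0.144), undivided reads (0.88, edgeR adjusted p = 0.0677) and no cow term (0.94, edgeR adjusted p = 0.065). Over all 14 the value ran from 0.54 to 2.27.

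Let-7e, the scarcest member, measured 244, 92.2, 161 and 118 CPM in plasma on FD and 86.1, 260, 373 and 132 CPM on HG. In leucocytes it measured 7.45, 9.86 and 15.5 CPM on FD and 7.85, 15.2 and 12.8 CPM on HG. Every plasma library stood above every leucocyte library. The log2 fold change was 3.17 (SE 0.604, edgeR adjusted p = 0.00254) on FD and 2.86 (SE 0.605, edgeR adjusted p = 0.00529) on HG. Both calls were lost without cow 3 (3.03 with edgeR adjusted p = 0.0641, and 2.70 with edgeR adjusted p = 0.085). Its count was smallest in plasma of cow 1 on FD, with 157 undivided reads, or 417 per 1e6 miRNA reads (95% Wilson interval 357 to 487, counting error only). Since the share of let-7e reads kept by the division was smaller in leucocytes, undivided reads were also compared, and by them let-7e took 0.0815 to 0.577% of the family's reads in plasma and 0.0276 to 0.0468% in leucocytes, with no overlap.

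The other 5 members did not pass the test on either diet in the reported fit. Let-7a-5p had a log2 fold change of 0.81 (SE 0.374, edgeR adjusted p = 0.111) on FD and 0.06 (SE 0.373, edgeR adjusted p = 0.927) on HG, although its CPM were 4529 to 10868 in plasma against 2632 to 3215 in leucocytes on FD, and 5835 to 11333 against 2989 to 4031 on HG. It passed as higher in plasma with total library size (1.46, edgeR adjusted p = 0.00847 on FD, and 1.21, edgeR adjusted p = 0.017 on HG), and on FD with totals without the erythroid names (0.92, edgeR adjusted p = 0.0447). In CPM alone, without TMM scaling, 4 of 8 members (a-5p, b, c and e) had plasma libraries that all lay above the leucocyte libraries, on each diet, beside 18.4% of the names tested on FD and 29.1% on HG. The values of let-7d, let-7f, let-7g and let-7i were -0.35, -0.12, -0.51 and -0.47 on FD and -0.73, -0.53, -0.78 and -0.76 on HG (SE 0.354 to 0.471, edgeR adjusted p 0.113 to 0.85). Their sign depended on scaling: with total library size in place of TMM, which raised the median of all names by 0.59 on FD and 1.07 on HG, all 4 values were positive on both diets. Under other alternatives these members passed as lower in plasma. Let-7g did so in 4 of 14 alternatives on FD and 6 of 14 on HG, let-7i in 2 of 14 and 3 of 14, and on HG alone let-7d in 3 of 14 and let-7f in 1 of 14. The DESeq2 Wald test was among them for let-7g and let-7i, at -0.89 and -0.86 on FD and -1.12 and -1.13 on HG. So was the requirement of at least 10 reads in every library, with -1.18 and -1.13 on FD and -1.19 and -1.19 on HG. Scaling by total library size also changed the split of all calls from 120 higher and 154 lower to 151 and 91 on FD, and from 134 and 146 to 196 and 62 on HG.

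**Figure D3:**
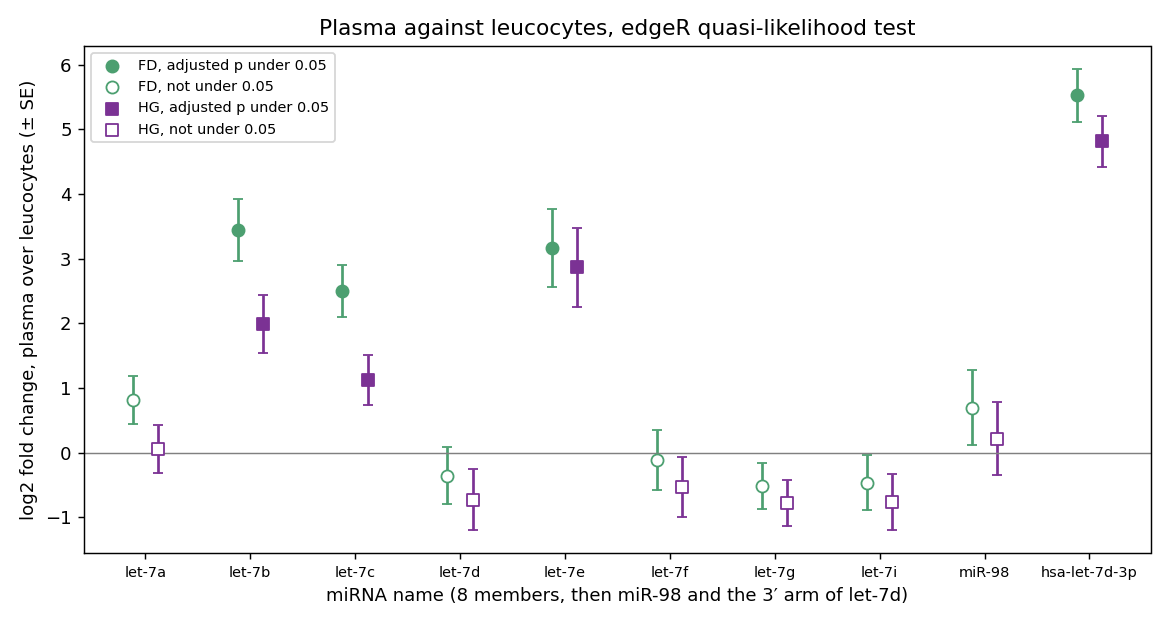
The y axis gives the log2 fold change of plasma over leucocytes with its SE from edgeR's quasi-likelihood test, on FD (circles) and HG (squares), and filled symbols passed an adjusted p of 0.05. Let-7b, let-7c, let-7e and the 3′ arm of let-7d lay above 0 on both diets, while the other members and miR-98 lay between -0.78 and 0.81.

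The hairpin of let-7d gave the widest contrast between the sample types. A hairpin yields a strand from its 5′ arm and one from its 3′ arm, and for let-7 the 5′ strand is the usual product. The 3′ strand of let-7d was listed under its human name, hsa-let-7d-3p, and its reads were not divided. In plasma it had 6187, 2021, 4880 and 3092 undivided reads per 1e6 miRNA reads on FD and 2824, 3552, 4195 and 5072 on HG. In leucocytes it had 50.7, 61.2 and 94.3 on FD and 60.4, 95.4 and 82.0 on HG. The 5′ strand had 727 to 5074 per 1e6 in plasma and 2376 to 3482 in leucocytes, so that its ranges overlapped.

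As a percentage of let-7d reads, the 3′ strand reached 191% ± 82.1 (SD, n = 4) in plasma on FD and 151% ± 69.9 on HG, and 2.78% ± 0.883 (n = 3) and 2.48% ± 0.415 in leucocytes. It outnumbered the 5′ strand in 3 of 4 plasma libraries on each diet, the exceptions being cow 4 on FD and cow 1 on HG. The log2 fold change of hsa-let-7d-3p between plasma and leucocytes was 5.52 (SE 0.407, edgeR adjusted p = 5.18e-06) on FD and 4.82 (SE 0.396, edgeR adjusted p = 1.74e-05) on HG. By p it ranked 2 of 797 names on both diets.

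The other 3′ strands were scarce in both sample types. Reads of let-7a-3p came to 0.476% ± 0.523 of let-7a-5p in plasma and 0.496% ± 0.112 in leucocytes on FD, and 0.531% ± 0.0622 and 0.464% ± 0.150 on HG. Those of let-7i-3p came to 0.862% ± 1.29 and 0.762% ± 0.283 of let-7i on FD, and 0.272% ± 0.208 and 0.606% ± 0.115 on HG. The plasma mean on FD leaned on cow 2, with 248 reads, where cows 1, 3 and 4 had 21, 19 and 19. In edgeR's test hsa-let-7i-3p was lower in plasma on both diets, as were 19.3% of all names on FD and 18.3% on HG. On FD its CPM overlapped, at 8.33 to 221 in plasma and 92.2 to 164 in leucocytes, and its calls were not repeated under the alternatives. Its log2 fold change was -2.59 (SE 0.893, edgeR adjusted p = 0.0442) on FD and -3.01 (SE 0.792, edgeR adjusted p = 0.0141) on HG. Those of let-7f had human names, of which hsa-let-7f-1-3p had 0 to 10 reads in plasma libraries and 188 to 504 in leucocyte libraries, and hsa-let-7f-2-3p 0 to 100 and 146 to 515. For let-7c, let-7e and let-7g no more than 6 reads of a 3′ strand were counted in any plasma library.

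**Figure D4:**
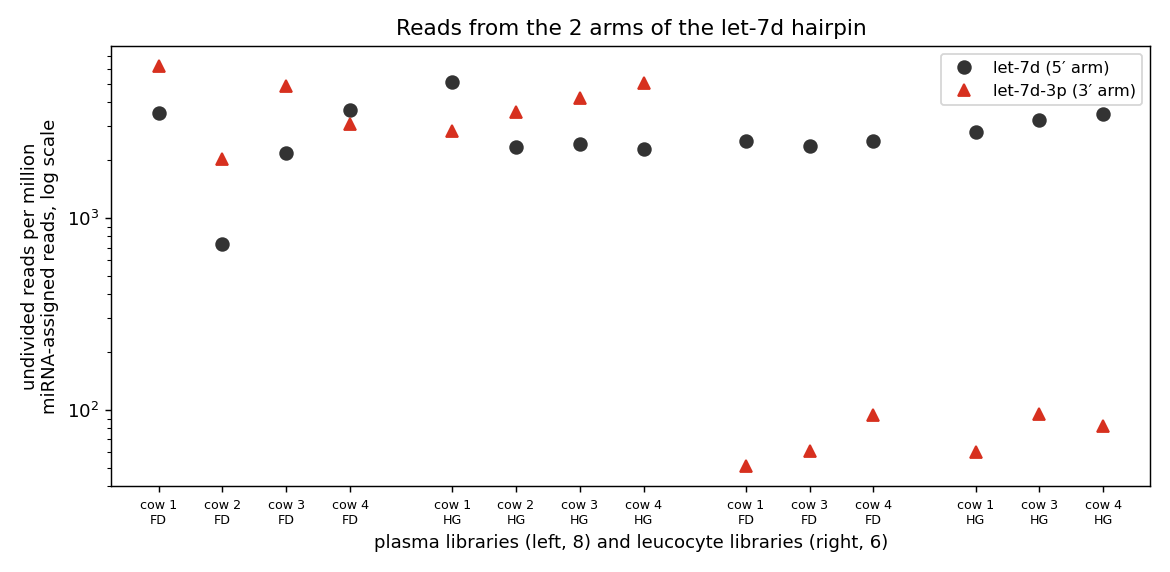
Each pair of symbols is 1 library, with undivided reads per 1e6 miRNA-assigned reads of the 5′ strand (circles) and the 3′ strand (triangles) of let-7d on a logarithmic y axis. The triangles lay at 2021 to 6187 in the 8 plasma libraries and at 50.7 to 95.4 in the 6 leucocyte libraries, while the circles overlapped.

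Some neighbours of let-7 genes were compared as well, since they can be made from the same primary transcript. Of 6 partner names, 4 were higher in plasma on both diets in edgeR's test. Among all names tested, 15.1% were higher in plasma on FD and 16.8% on HG. The 4 were miR-99b and miR-125a, beside let-7e, miR-100, beside let-7a-2, and miR-125b, whose own neighbours were not looked up. MiR-125a had a log2 fold change of 5.07 (SE 0.496, edgeR adjusted p = 6.05e-05) on FD and 4.82 (SE 0.492, edgeR adjusted p = 6.9e-05) on HG. MiR-99b had 4.45 (edgeR adjusted p = 0.00243) and 3.82 (edgeR adjusted p = 0.00475), miR-100 had 4.47 (0.000502) and 4.49 (0.000372), and miR-125b had 2.69 (0.00086) and 2.16 (0.00309), the last not passing without cow 3 (1.87, edgeR adjusted p = 0.05). The values of miR-99a-5p, beside let-7c, were -0.09 (SE 0.450, edgeR adjusted p = 0.89) and -0.65 (SE 0.418, edgeR adjusted p = 0.247). For miR-98, beside let-7f-2, they were 0.70 (SE 0.580, edgeR adjusted p = 0.381) and 0.22 (SE 0.567, edgeR adjusted p = 0.788). Let-7e and its neighbours miR-99b and miR-125a were thus all higher in plasma, whereas of the pair let-7c and miR-99a-5p only let-7c passed the test. The difference between those members and neighbours was not itself tested.

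The next question was whether HG changed the family within a sample type. In leucocytes let-7b was higher on HG. It rose from 821 to 1077 CPM in cow 1, from 725 to 1233 in cow 3 and from 1361 to 1855 in cow 4, so that it was higher in 3 of 3 cows while the groups overlapped. The log2 fold change was 0.55 (SE 0.120, edgeR adjusted p = 0.0455), or 1.46-fold, and the only member to pass was let-7b. Of the 779 names tested, 14 passed (1.8%), 3 of them higher on HG (0.385%), and 1 of these 3 was the human counterpart of let-7b with the same counts. The DESeq2 Wald test, the study's own kind of test, also called let-7b (log2 fold change 0.55, DESeq2 adjusted p = 0.00444), with 36 of 779 names called (4.62%). The edgeR call was lost in 9 of 11 alternatives, with log2 fold changes of 0.48 to 0.66 and adjusted p between 0.00184 and 0.99 over all 11. Without cow 3 the value was 0.48 (edgeR adjusted p = 0.99), without cow 1 it was 0.66 (edgeR adjusted p = 0.222), and without the cow term it was 0.54 (edgeR adjusted p = 0.727).

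Let-7a-5p, let-7c and let-7d were also higher on HG in 3 of 3 cows, but did not pass after adjustment. Let-7a-5p measured 2751, 2632 and 3215 CPM on FD and 2989, 3473 and 4031 CPM on HG, with a log2 fold change of 0.29 (SE 0.123, edgeR adjusted p = 0.278). Let-7d measured 1462, 1387 and 1490 CPM on FD and 1610, 1882 and 2032 CPM on HG, with 0.35 (SE 0.123, edgeR adjusted p = 0.195), and its diets did not overlap. How many of all names were higher in 3 of 3 cows, or had diets that did not overlap, was not counted. Let-7c had 0.37 (SE 0.136, edgeR adjusted p = 0.213), and passed when cow 4 was left out (edgeR adjusted p = 0.0278). With let-7b, 4 of 8 members were higher at an unadjusted p under 0.05, where 7.45% of all names were. The most abundant members moved little: let-7g had 0.03 (SE 0.120), let-7f 0.07 (SE 0.143) and let-7i -0.01 (SE 0.128), and let-7e had 0.15 (SE 0.215), all with an edgeR adjusted p of 0.825 or more. The members' median was 0.22, beside -0.02 over all names. None of the 6 partner names passed (smallest edgeR adjusted p = 0.529).

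Erythroid names with their human counterparts made up 35.4 to 47.4% of leucocyte counts on FD and 38.8 to 48.9% on HG. Over bovine names only they made up 18.3 to 24.9% and 21.7 to 35.04%, and the leucocyte markers 2.82 to 3.41% and 2.29 to 3.36%. Their part in the let-7b result was not tested.

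In plasma no member passed the test of diet. Of the 536 names tested in edgeR, 0 passed (0%), 46 had an unadjusted p under 0.05 (8.58%) and DESeq2 called 12 (2.24%), none of them a member. The log2 fold changes of the members ran from -0.88 (let-7c, SE 0.483, edgeR adjusted p = 0.615) and -0.76 (let-7b, SE 0.561, edgeR adjusted p = 0.843) to 0.04 (let-7d, SE 0.598, edgeR adjusted p = 0.981). Let-7a-5p, let-7e, let-7f, let-7g and let-7i had -0.37, -0.05, -0.29, -0.14 and -0.25. Their median was -0.27, beside 0.26 over all names. The SEs of 0.481 to 0.704 were wider than those of 0.120 to 0.215 in leucocytes. The sign of the median depended on scaling, and with total library size, which raised the median of all names by 0.38, it was 0.15.

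The cows went different ways. In CPM the summed family was higher on HG in cow 1 (log2 ratio 0.51) and cow 2 (0.47) and lower in cow 3 (-0.51) and cow 4 (-0.30). Of the 8 members, 6 were higher on HG in cow 1, 7 in cow 2, 4 in cow 3 and 3 in cow 4. Let-7b fell by 1.56 on the log2 scale in cow 3, from 20580 to 6986 CPM, by 0.21 in cow 4, and differed by 0.14 and 0.12 in cows 1 and 2. By undivided reads per 1e6 it was lower on HG in 4 of 4 cows, with log2 ratios of -0.13, -0.0037, -1.47 and -0.17. Let-7d was 1.72 higher in cow 2, from 450 to 1483 CPM, and let-7e 1.498 and 1.21 higher in cows 2 and 3 but -1.501 in cow 1. In leucocytes the summed family gave -0.13, 0.13 and 0.21 in cows 1, 3 and 4. As a share of bovine names only it gave -0.11, 0.14 and -0.07, so the sign in cow 4 depended on the total used.

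**Figure D5:**
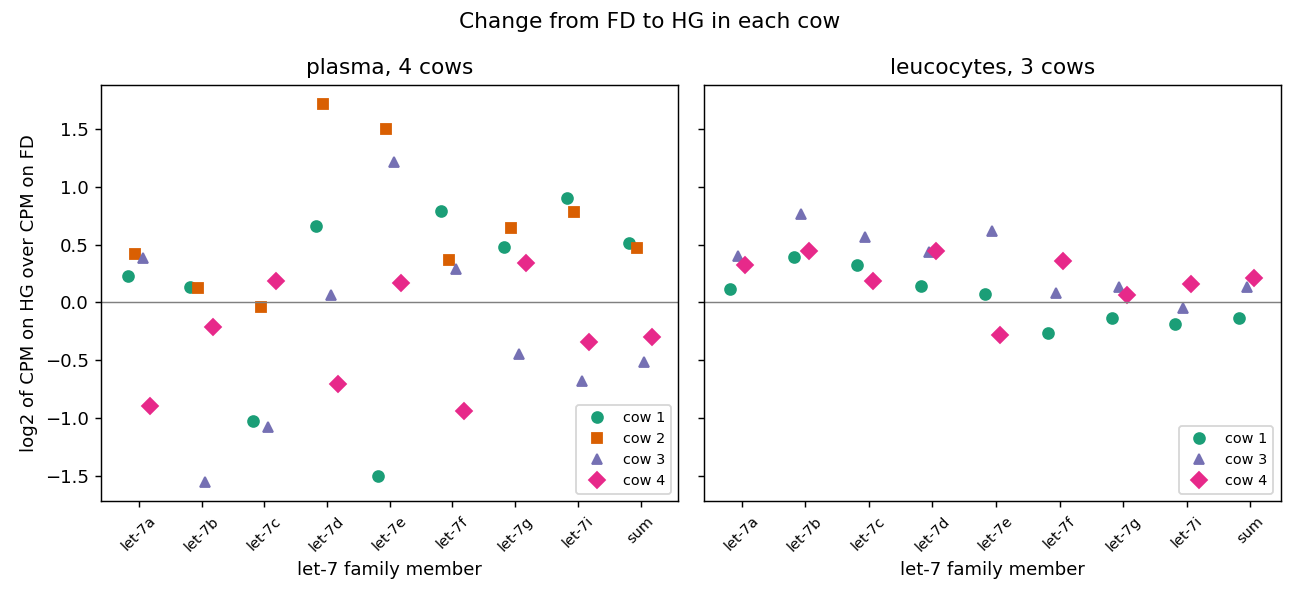
Each symbol is 1 cow, with the log2 ratio of CPM on HG to CPM on FD for each member and for their sum, in plasma (left, 4 cows) and leucocytes (right, 3 cows). In leucocytes let-7a-5p, let-7b, let-7c and let-7d lay above 0 in 3 of 3 cows, while in plasma no member had the same sign in 4 of 4 cows in adjusted CPM (by undivided reads let-7b did). The share of all names with the same sign in every cow was not counted.

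Whether the change with diet differed between plasma and leucocytes was tested as an interaction. No member passed, nor did any of the 797 names (0 called in edgeR, 0%, with 93 or 11.7% at an unadjusted p under 0.05, and 19 called by DESeq2). All 8 values were below 0, from -0.29 (let-7g, SE 0.510) to -1.42 (let-7b, SE 0.638, edgeR adjusted p = 0.441), with a median of -0.46 beside 0.20 over all names. The values of let-7a-5p, let-7d, let-7e, let-7f and let-7i were -0.78, -0.44, -0.31, -0.48 and -0.35. With total library size 5 of the 8 were above 0 (let-7d, let-7e, let-7f, let-7g and let-7i, 0.079 to 0.25), and each of these 5 was also above 0 with 1 of the cows left out. Let-7c alone had an unadjusted p under 0.05, with -1.37 (SE 0.534, edgeR adjusted p = 0.347). The rise of let-7b in leucocytes is thus not shown to differ from its change in plasma.

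The names whose levels ran most like that of the summed family were listed for each sample type, among names of at least 100 CPM. Over the 8 plasma libraries and 156 candidates these were miR-7857-3p (Pearson r = 0.964), miR-155 (0.89), miR-28 (0.851), miR-2478 (0.841) and miR-191 (0.786). Over the 6 leucocyte libraries and 104 candidates they were miR-339b (0.848), miR-339a (0.848), miR-30c (0.839), miR-107 (0.81) and miR-221 (0.76). The 2 lists share no name. These values are a description, since the libraries of a cow are not independent and all CPM of a library share 1 total.

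Each member was backed by many distinct read sequences. Let-7a-5p had 109 to 244 in plasma and 424 to 679 in leucocytes, and let-7e had 13 to 32 and 42 to 73. The leucocyte libraries, with the larger numbers, were also the deeper ones.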

How the data were processed

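Small RNA libraries of bovine plasma (8) and leucocytes (6) were analysed. The authors demultiplexed reads with bcl2fastq 2.20, trimmed them, discarded short and low-quality reads, and assigned the rest with sRNAbench to miRNAs of the cow genome and of human. The deposited library files hold read counts (undivided), numbers of distinct reads, and estimated counts (expected counts) in which the authors' tool divides reads that map more than once. The deposited reads per 1e6 (score) served only to recover library totals. A pair of normalized series tables was not used.

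Rounded estimated counts of names with at least 10 reads in total were tested with edgeR 4.0.16 (R 4.3.3; quasi-likelihood, robust, TMM) with cow and group as terms and Benjamini-Hochberg adjustment over all names at 0.05, and with DESeq2 1.42.0 and limma 3.58.1 as alternatives. Scripts were tested on simulated data. Plasma and leucocytes were fitted separately for diet, and in 1 fit of 14 libraries for the comparison of sample types. Each cow is 1 replicate. Pairing by cow rests on the same animals and their numbering, and correlations of same-cow deviations were 0.519 to 0.713 in leucocytes and -0.278 to 0.239 in plasma. Those between different cows were -0.668 to 0.408 in leucocytes and -0.356 to 0.407 in plasma. In plasma the same-cow values thus lay within the range of different cows, and the levels themselves did not show the pairing. The members and lists were chosen with earlier results of these data known. By the rule for named miRNAs, all 8 members were named in every comparison. The other strands, miR-98, the partner names and the 5 names most alike in level were named where a result concerned them. Interval bounds cover counting error only.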

Additional observations from a re-analysis of the deposited data

Results flagged for a closer look

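Among 22 plasma groups of 4 libraries (8 members, their sum, hsa-let-7d-3p and miR-98 on each diet), 3 held a library far from the other 3 by Dixon's ratio, above the 95% critical value for 4 values, all of them cow 1 on HG. Chance alone marks about 1 in 20 groups. The groups share the same plasma libraries, so they are not independent and the 3 flags of 1 library are not separate events. Let-7a-5p measured 11333 CPM there (ratio 0.88), against 5835 to 6497 in the other cows. Let-7d measured 3539 CPM (ratio 0.985), against 1483 to 1515. Let-7f measured 26500 CPM (ratio 0.964), against 9505 to 10123. In the same library miR-98 was also the highest at 16336 CPM (ratio 0.788, under the critical value).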

How the results depend on the processing

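The calls of let-7b and let-7c as higher in plasma on FD held in 14 of 14 alternatives, with log2 fold changes of 2.72 to 4.02 and 1.75 to 3.15, and those of hsa-let-7d-3p on both diets held in 13 of 13. The number of members called on FD was 3 in the reported fit, 5 with DESeq2 or with at least 10 reads in every library, and 2 to 4 with 1 cow left out. Both counts of 5 were let-7b, let-7c and let-7e higher and let-7g and let-7i lower. On HG it was 3, then 6 in both of those alternatives and 1 to 4 with 1 cow left out. With DESeq2 the 6 were let-7b, let-7c and let-7e higher and let-7d, let-7g and let-7i lower, and with at least 10 reads in every library let-7b and let-7e higher and let-7d, let-7f, let-7g and let-7i lower. The leucocyte diet call of let-7b (1 member) became 0 with DESeq2 size factors, total library size, no filter on low counts, at least 10 reads in every library, undivided read counts, bovine names only or no replicate block, and 0 to 2 with 1 cow left out. Among all names, leucocyte diet calls were 14 in the reported fit, 36 with DESeq2, 23 with at least 10 reads in every library, 9 with DESeq2 size factors, 5 with bovine names only, 0 with no replicate block (unpaired) and 0 to 111 with 1 cow left out (111 without cow 4). Plasma diet calls went from 0 to 12 with DESeq2, and calls of the interaction from 0 to 19. Calls on FD were 274, 163 with at least 10 reads in every library and 106 to 302 with 1 cow left out (106 without cow 3). Calls on HG were 280, 173 and 158 to 279 (158 without cow 1 or cow 3).

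Of 745 values of single names under alternatives, 65 had the other sign, none of them past the threshold in either fit. For diet in plasma they were, with total library size, let-7a-5p 0.039, let-7e 0.39, let-7f 0.14, let-7g 0.26, let-7i 0.17 and hsa-let-7d-3p 0.051. With at least 10 reads in every library let-7e was 0.26, let-7f 0.023, let-7g 0.15 and let-7i 0.051. Let-7e was also 0.048 without the filter, 0.0090 with undivided reads, 0.066 with bovine names only and 0.029 with no replicate block, where let-7d was -0.039. With 1 cow left out the ranges were -0.37 to 0.38 for let-7d, -0.23 to 0.26 for let-7e, -0.79 to 0.022 for let-7f, -0.52 to 0.25 for let-7g and -0.79 to 0.21 for let-7i. For diet in leucocytes let-7g was -0.015 without the filter and -0.0044 with at least 10 reads in every library, and leaving out 1 cow gave -0.015 to 0.15 for let-7g, -0.13 to 0.11 for let-7i, -0.25 to 0.086 for miR-98, -0.041 to 0.34 for let-7e and -0.10 to 0.28 for let-7f.

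For plasma against leucocytes with total library size, let-7d, let-7f, let-7g, let-7i and miR-99a-5p were 0.29, 0.52, 0.11, 0.13 and 0.54 on FD and 0.39, 0.60, 0.35, 0.35 and 0.48 on HG. With no replicate block miR-99a-5p was 0.27 on FD and let-7a-5p -0.017 on HG. On HG let-7a-5p and miR-98 were -0.26 and -0.18 with DESeq2 and with its size factors, and -0.35 and -0.22 with at least 10 reads in every library, and let-7a-5p was -0.026 with undivided reads and -0.028 with bovine names only. With 1 cow left out, let-7f was -0.85 to 0.31 and miR-98 -0.14 to 1.17 on FD, and let-7a-5p was -0.79 to 0.34 and miR-98 -0.90 to 0.72 on HG. For the interaction with total library size, let-7d, let-7e, let-7f, let-7g and let-7i were 0.085, 0.25, 0.079, 0.24 and 0.19, and with 1 cow left out they were -0.68 to 0.16, -0.36 to 0.22, -0.88 to 0.18, -0.49 to 0.068 and -0.71 to 0.080.

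The family level was 13.2, 13.2, 8.62 and 9.31% in plasma on FD and HG and leucocytes on FD and HG with undivided reads, 8.03, 8.09, 5.69 and 5.66% over bovine names only, 6.38 and 6.75% in leucocytes without erythroid names, and 3.97% in leucocytes on FD with miR-98 added. Leaving out 1 cow (chosen after seeing the data) gave 5.19 to 6.81, 5.29 to 6.44, 3.59 to 3.67 and 3.69 to 4.09%. The causes were not tested, except that fewer names or cows enter by construction.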
